A study of Mus musculus with 6 samples.

Results

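Kupffer cells, the macrophages that line the sinusoids of the liver, are seeded before birth and maintain themselves by local division, and they are replaced by blood monocytes when resident cells are lost. They carry a set of surface and secreted proteins by which they are told apart from other macrophages. *Clec4f* encodes a galactose-binding C-type lectin restricted to Kupffer cells in mice, and *Timd4* encodes a phosphatidylserine receptor used in the uptake of dying cells and borne by long-resident cells, which newly arrived monocyte-derived Kupffer cells acquire late. *Vsig4* encodes a receptor for complement C3 fragments, *Clec1b* the podoplanin receptor CLEC-2, *Folr2* a folate receptor anchored in the membrane, and *Adgre1* the F4/80 antigen, an adhesion receptor with a close relative in *Adgre4*. *Cd5l* is listed with them, although its product is a secreted scavenger-receptor protein rather than a surface receptor.

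These 8 genes were listed as resident Kupffer cell surface genes and chosen by symbol, with earlier results of these data known. They were taken from 49315 genes counted in F4/80-positive liver cells of 6 mice. The 3 WT mice were *Lpcat3* fl/fl littermates without Cre, and the 3 Lpcat3 KOMac mice were *Lpcat3* fl/fl with 1 *LysM* allele replaced by Cre, all on a C57BL/6N background, so that both groups carried the floxed gene and only the Cre-bearing mice also lacked 1 intact *Lyz2* allele. All were fed an HFD with 60% fat for 16 weeks from young adulthood, and no further treatment is given for them. The study used males and females, and the labels do not give the sex of each mouse. Cells were released by collagenase perfusion, hepatocytes were spun down, and the F4/80-positive cells of the supernatant were collected on magnetic beads, with 1 library per mouse. *LysMCre* is active in neutrophils and monocytes as well as macrophages, and its recombination in resident cells is often partial. Since the cells were selected on the product of *Adgre1*, the level of this gene is also conditioned by the selection. Markers of the labelled cell type were present in every library, where *Clec4f* had at least 334387 counts and *Timd4* at least 6372. These counts do not give the purity of the cells.

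Libraries held 44954224 to 71392812 counts. *Lpcat3* was at 85, 66.2 and 61.2 CPM (TMM-scaled counts, relative to a library size corrected for composition) in WT 1 to 3, against 19.5, 33.3 and 19.4 CPM in Lpcat3 KOMac mice 1 to 3, so the labels fitted the targeted gene. Hepatocyte RNA differed widely between libraries: the summed level of 8 hepatocyte transcripts was 23107, 2089 and 1947 CPM in WT mice 1 to 3 and 5298, 14346 and 5073 CPM in Lpcat3 KOMac mice 1 to 3. WT mouse 1 and Lpcat3 KOMac mouse 2 therefore stood apart, and results are also given without both. In bulk RNA, fewer cells of a type and less RNA per cell cannot be told apart.

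The start regions of *Clec4f*, *Folr2* and *Timd4* are shown because the first pair were the members whose genotype groups did not overlap and *Timd4* was the most variable member. The sequences are RefSeq promoter windows of GRCm38.p6, 5′ to 3′ on the strand of the gene, ending before the first annotated transcribed base, and capitals mark TGCTGA or its reverse complement, the half-site bound by MAF factors of macrophages.
Clec4f (chr6:83656188-83656366, minus strand): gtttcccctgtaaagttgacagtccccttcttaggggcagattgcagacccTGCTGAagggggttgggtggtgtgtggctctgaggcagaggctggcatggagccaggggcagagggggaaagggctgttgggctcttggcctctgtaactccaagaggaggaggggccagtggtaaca
Folr2 (chr7:101857195-101857440, minus strand): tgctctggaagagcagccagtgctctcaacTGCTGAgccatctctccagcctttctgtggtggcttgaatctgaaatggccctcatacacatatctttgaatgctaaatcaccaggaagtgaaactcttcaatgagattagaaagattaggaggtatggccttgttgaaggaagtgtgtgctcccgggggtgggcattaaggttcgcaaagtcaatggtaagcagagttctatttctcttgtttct
Timd4 (chr11:46810549-46810798, plus strand): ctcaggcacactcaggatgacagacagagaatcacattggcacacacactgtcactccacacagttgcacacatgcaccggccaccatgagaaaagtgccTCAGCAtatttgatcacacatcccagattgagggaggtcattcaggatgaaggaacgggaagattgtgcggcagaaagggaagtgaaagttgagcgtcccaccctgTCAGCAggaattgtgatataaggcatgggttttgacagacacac

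Windows were found for 7 of the 8 members, *Adgre1* being the other. On either strand of the 250 bases before the first RefSeq start of each gene, TGCTGA was present in 4 of the 7 members (*Clec4f*, *Timd4*, *Cd5l* and *Folr2*), against 16.1% of 32851 promoter windows. In *Clec4f* it lay 199 bases before the RefSeq start, in *Timd4* 150 and 44 bases before it, and in *Folr2* 220 bases before it. The printed *Clec4f* and *Folr2* sequences stop earlier, before another annotated start further upstream, so these distances do not run to their printed ends. CAGAC, a SMAD element, was present in 4 of the 7 members, against 42.2% of all windows, and nowhere overlapped the MAF half-site. The core bound by PU.1, GAGGAA, was present in 2 of the 7, *Vsig4* and *Cd5l*, against 23.3% of all windows. GTGGGAA of RBPJ and the E-box CACGTG, in 5.42% and 6.02% of all windows, were in 0 of the 7. These matches of letters are a description and do not show binding.

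The members spanned a wide range of abundance. Per kilobase of exonic length, the mean level over the 6 libraries fell in the order *Cd5l* at 4931 ± 622 CPM per kb, *Clec4f* at 3524 ± 795, *Vsig4* at 1544 ± 252, *Adgre1* at 733 ± 113, *Folr2* at 272 ± 59, *Timd4* at 227 ± 128, *Adgre4* at 199 ± 47.5 and *Clec1b* at 90.6 ± 10.3 CPM per kb (SD, n = 6). *Cd5l* stood above *Clec4f* in 6 of 6 libraries, by 1.18-fold to 1.57-fold, although their ranges overlapped. *Vsig4*, *Adgre1* and *Folr2* followed with ranges that were apart from each neighbor above them. *Folr2*, *Timd4* and *Adgre4* could not be ordered beyond their spread, since each was above the next in only 4 of 6 libraries. *Clec1b* has an exonic length of 5103 bases summed over all its annotated transcripts, so its level per kilobase would be higher for a shorter transcript.

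**Figure D1:**
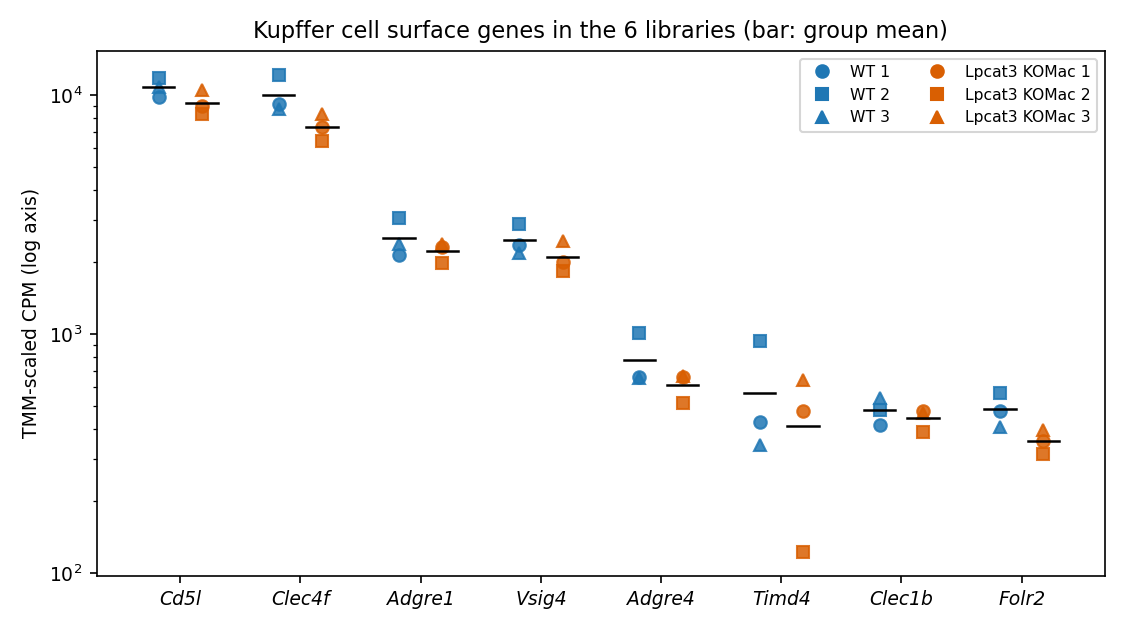
TMM-scaled CPM on a log axis for the 8 genes in each of the 6 libraries, with blue symbols for WT, orange symbols for Lpcat3 KOMac, 1 symbol shape per replicate number and a black bar for the mean of 3 mice. *Clec4f* and *Folr2* show no overlap between genotypes, and *Timd4* ranges from 123 to 938 CPM.

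The question of the comparison is whether macrophages with reduced *Lpcat3* kept the surface profile of resident Kupffer cells. None of the 8 members passed the test: 0 had an adjusted p-value under 0.05 in edgeR's quasi-likelihood test, as did 0% of the 16134 genes tested. The deleted gene *Lpcat3* did not pass either, with a log2 fold change of -1.56 (SE 0.26, unadjusted p = 0.00119 in edgeR). Nor did *Lyz2*, of which 1 allele was replaced by Cre, at -1.42 (SE 0.3, unadjusted p = 0.00351 in edgeR). The paper, by a test it does not name, reported both among its few differentially expressed genes. A result of 0 calls therefore does not show that the members were unchanged. All 8 estimates were below zero, as were 59.9% of all genes tested, and their median log2 fold change was -0.29, against -0.04 over all genes tested. At an unadjusted p-value under 0.05, 2 of the 8 were lower in Lpcat3 KOMac cells (*Clec4f* and *Folr2*), against 1.57% of all genes, and 0 were higher, against 1.07%. DESeq2 called 0 of the 8, against 0.093% of all genes. The count of 2 fell to 0 with total counts alone, with scaling to pan-macrophage genes, without WT mouse 2, without Lpcat3 KOMac mouse 1, without Lpcat3 KOMac mouse 2 and without both libraries of highest hepatocyte level. It fell to 1, *Folr2*, with a hepatocyte covariate, with a gene length offset and without robust dispersion. The same 2 members were lower in every Lpcat3 KOMac mouse than in every WT mouse, as were 5.2% of all genes.

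Of the lectins, *Clec4f* (ENSMUSG00000014542, chromosome 6 of GRCm38, 83644542 to 83656187, minus strand) measured 9170, 12171 and 8772 CPM in WT 1 to 3, against 7361, 6449 and 8331 CPM in Lpcat3 KOMac mice 1 to 3. All 3 Lpcat3 KOMac libraries were below all 3 WT libraries, but the gap between Lpcat3 KOMac mouse 3 and WT mouse 3 was small beside the spread among WT mice. Its mean was 10038 ± 1859 CPM in WT cells and 7380 ± 941 CPM in Lpcat3 KOMac cells (SD, n = 3 each), or 73.5% of WT. Its log2 fold change was -0.44 (SE, standard error, 0.17, 95% interval -0.87 to -0.02, unadjusted p = 0.0423 and adjusted p = 1 in edgeR; two-sided exact permutation p = 0.1, the minimum for 3 against 3). Without WT mouse 2 the estimate was -0.28.

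*Clec1b* (ENSMUSG00000030159, chromosome 6, 129397297 to 129409335, plus strand), whose product signals through the kinase SYK and is also carried by platelets, was at 419, 484 and 539 CPM in WT 1 to 3, against 477, 388 and 467 CPM in Lpcat3 KOMac mice 1 to 3. The genotypes overlapped, and it was the only member whose highest library was WT mouse 3. Its log2 fold change was -0.11 (SE 0.14, 95% interval -0.45 to 0.22), and -0.01 without Lpcat3 KOMac mouse 2. It shares 184 exonic bases on the same strand with *Clec9a*, which had 894 to 2344 counts, against at least 20099 for *Clec1b*. Of 4 platelet genes, *Pf4* was at 11.1 to 26.2 CPM over the libraries and *Gp9* at 0.234 CPM or less, and their part in the level of *Clec1b* was not tested.

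*Folr2* (ENSMUSG00000032725, chromosome 7, 101839988 to 101857194, minus strand) measured 479, 570 and 408 CPM in WT 1 to 3, against 357, 315 and 397 CPM in Lpcat3 KOMac mice 1 to 3. The groups did not overlap, with WT mouse 3 only slightly above Lpcat3 KOMac mouse 3. Its mean was 486 ± 81.3 CPM in WT cells and 356 ± 41.3 CPM in Lpcat3 KOMac cells (SD, n = 3 each), giving a log2 fold change of -0.45 (SE 0.16, 95% interval -0.83 to -0.06, unadjusted p = 0.0303 and adjusted p = 1 in edgeR; two-sided exact permutation p = 0.1). *Gm10602* on the other strand shares 975 exonic bases with it and had 563 to 956 counts, against at least 16317 for *Folr2*. The strand setting of the counting is not given in the sources used here, so reads of this overlap cannot be assigned with certainty.

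Among the uptake receptors, *Timd4* (ENSMUSG00000055546, chromosome 11, 46810800 to 46844332, plus strand) measured 428, 938 and 344 CPM in WT 1 to 3, against 478, 123 and 645 CPM in Lpcat3 KOMac mice 1 to 3. The highest library was WT and the lowest Lpcat3 KOMac, and the remaining 4 were intermingled. The mean was 570 ± 321 CPM in WT cells and 415 ± 267 CPM in Lpcat3 KOMac cells (SD, n = 3 each), giving a log2 fold change of -0.46 (SE 0.69, 95% interval -2.18 to 1.26, unadjusted p = 0.534 in edgeR). The size of the estimate was thus like that of *Clec4f*, with an interval that took in a 2-fold change in either direction. The estimate was 0.11 without WT mouse 2, -0.00 without Lpcat3 KOMac mouse 2 and -0.91 without Lpcat3 KOMac mouse 3, so its direction rested on single mice.

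*Vsig4* (ENSMUSG00000044206, chromosome X, 96247203 to 96293438, minus strand) measured 2359, 2901 and 2182 CPM in WT 1 to 3, against 2009, 1842 and 2459 CPM in Lpcat3 KOMac mice 1 to 3. Lpcat3 KOMac mouse 3 was above 2 of the 3 WT mice. The log2 fold change was -0.24 (SE 0.16, 95% interval -0.64 to 0.16), and -0.11 without WT mouse 2 or -0.13 without Lpcat3 KOMac mouse 2. *Cd5l* (ENSMUSG00000015854, chromosome 3, 87357881 to 87371073, plus strand) measured 9770, 11785 and 10819 CPM in WT 1 to 3, against 9007, 8317 and 10543 CPM in Lpcat3 KOMac mice 1 to 3. Its log2 fold change was -0.22 (SE 0.13, 95% interval -0.54 to 0.11), and the genotypes overlapped. Without Lpcat3 KOMac mouse 2 it was -0.12.

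Of the adhesion receptors, *Adgre1* (ENSMUSG00000004730, chromosome 17, 57358686 to 57483529, plus strand) measured 2135, 3051 and 2380 CPM in WT 1 to 3, against 2322, 1985 and 2390 CPM in Lpcat3 KOMac mice 1 to 3. Leaving aside the WT maximum and the Lpcat3 KOMac minimum, the other 4 libraries lay close together. Its log2 fold change was -0.18 (SE 0.16, 95% interval -0.58 to 0.22), and -0.02 without WT mouse 2 or -0.08 without Lpcat3 KOMac mouse 2. *Adgre4* (ENSMUSG00000032915, chromosome 17, 55749984 to 55853662, plus strand) measured 663, 1011 and 658 CPM in WT 1 to 3, against 660, 514 and 668 CPM in Lpcat3 KOMac mice 1 to 3. Again 4 libraries had nearly the same level, and the log2 fold change of -0.34 (SE 0.21, 95% interval -0.86 to 0.18) had its extremes in the other 2. Without WT mouse 2 it was -0.11, and without Lpcat3 KOMac mouse 2 it was -0.21. *Adgre5*, the third member of this receptor family measured, was at 914 ± 197 CPM in WT cells and 755 ± 68.7 CPM in Lpcat3 KOMac cells (SD, n = 3 each), with a log2 fold change of -0.28 (SE 0.17).

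**Figure D2:**
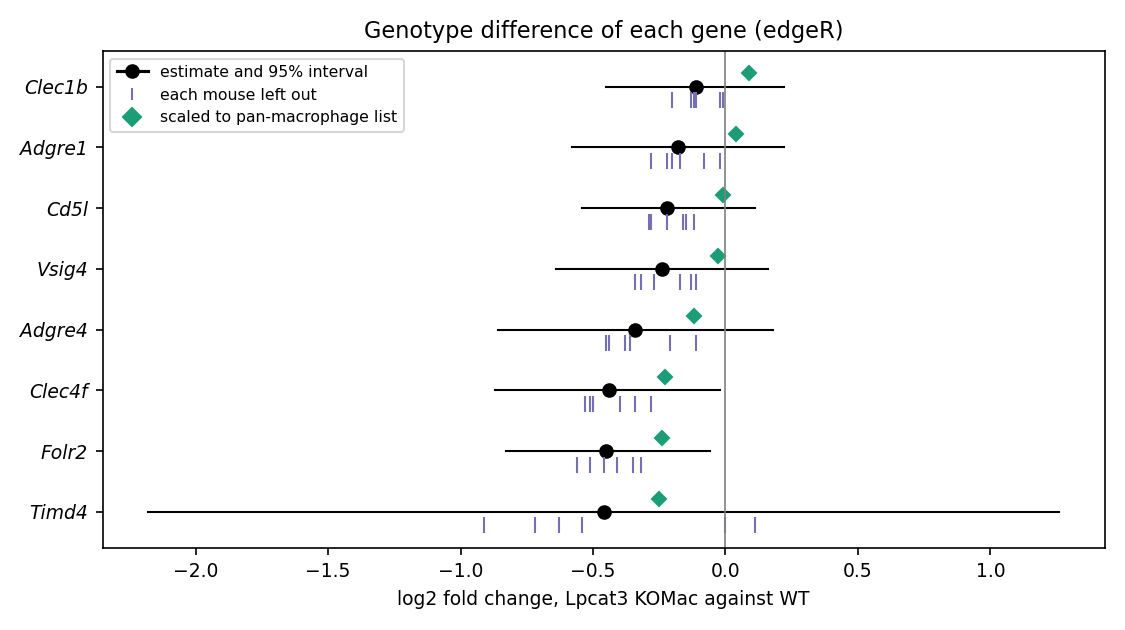
Log2 fold change of Lpcat3 KOMac against WT for the 8 genes, with black points and lines for the edgeR estimate and its 95% interval, purple ticks for the fits that left out 1 mouse each, and green diamonds for scaling to 10 pan-macrophage genes. Intervals of *Clec4f* and *Folr2* end just below zero, that of *Timd4* is by far the widest, and the diamonds of *Clec1b* and *Adgre1* lie above zero, at 0.09 and 0.04.

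A pair of libraries set most of the spread. Lpcat3 KOMac mouse 2 was the lowest of the 6 libraries for 8 of 8 members, as it was for 17.1% of all genes tested, and WT mouse 2 was the highest for 7 of 8, as it was for 21% of all genes. The median member lay 0.42 above its own mean (log2) in WT mouse 2 and 0.35 below it in Lpcat3 KOMac mouse 2, and within 0.1 of it in the other 4. With WT mouse 2 left out the median log2 fold change of the members was -0.11, and with Lpcat3 KOMac mouse 2 left out it was -0.13. Lpcat3 KOMac mouse 2 carried much hepatocyte RNA and WT mouse 2 little, and in WT mouse 1, which carried the most, the median member was at its own mean. Without WT mouse 1 and Lpcat3 KOMac mouse 2, the libraries of highest hepatocyte level, the median was -0.21 and 0 members passed the test. The part of hepatocyte RNA in these differences was not tested.

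Of 10 pan-macrophage genes, 0 passed the test and 10 had an estimate below zero, with a median log2 fold change of -0.20, and 4 of the 10 were lower in every Lpcat3 KOMac mouse than in every WT mouse, against 5.2% of all genes. At an unadjusted p-value under 0.05, 1 of the 10 was lower, against 1.57% of all genes: *Cd14*, the co-receptor for lipopolysaccharide, with a log2 fold change of -0.55 (SE 0.18). Their summed level was 14345 to 18779 CPM in WT and 13844 to 14965 CPM in Lpcat3 KOMac cells. *Csf1r*, the receptor for the macrophage growth factor CSF1, had a log2 fold change of -0.23 (SE 0.2). With the libraries scaled to the pan-macrophage genes in place of TMM, the median of all genes tested moved to 0.17 and that of the members to -0.08. The members lay 0.25 below all genes with TMM and 0.24 below with this scaling, where 16.3% of all genes had an estimate below zero (35.1% with total counts alone), and *Clec1b* and *Adgre1* were above zero. With TMM, this gap was 0.08 without WT mouse 2 and 0.10 without Lpcat3 KOMac mouse 2. *Clec4f* and *Folr2* were at -0.23 and -0.24 under pan-macrophage scaling, with adjusted p = 0.805 for each in edgeR.

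Within each library, the ratio of a member to *Adgre1* does not depend on scaling. Differences within a library were planned for *Timd4* only. Those of the other members rest on the same counts as the values above and are no separate support. *Clec4f* exceeded *Adgre1* in counts by 2.1, 2 and 1.88 (log2) in WT mice 1 to 3 and by 1.66, 1.7 and 1.8 in Lpcat3 KOMac mice 1 to 3. *Folr2* was below *Adgre1*, at -2.16, -2.42 and -2.54 in WT 1 to 3, against -2.7, -2.66 and -2.59 in Lpcat3 KOMac mice 1 to 3. Both ratios were lower in every Lpcat3 KOMac mouse than in every WT mouse (two-sided exact permutation p = 0.1 for each), with a difference of -0.27 in each case, as was the ratio to *Adgre1* of 0.465% of all genes, while 5.35% of all genes were higher. The ratios to *Adgre1* of the 5 remaining members overlapped between genotypes. Relative to the mean of the 10 pan-macrophage genes, all 8 members overlapped (0.403% of all genes were lower and 13.9% higher in every Lpcat3 KOMac mouse), and *Cd5l* was the most even, at 3.58 ± 0.02 in WT and 3.57 ± 0.1 in Lpcat3 KOMac cells (log2 difference, SD, n = 3 each).

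*Timd4*, the marker of embryonic-type cells, varied far more than the other members. Its highest library exceeded its lowest by 7.63-fold, against 1.39-fold to 1.97-fold for the other 7, and only 6.36% of 10521 genes with a mean of at least 5 CPM had a wider range. The coefficient of variation was 56.4% in WT and 64.2% in Lpcat3 KOMac cells, against 9.34% and 12.3% for *Cd5l*. Relative to the median of the 7 other members in the same library, *Timd4* was at -2.32, -1.63 and -2.67 (log2) in WT 1 to 3, against -2.07, -3.91 and -1.89 in Lpcat3 KOMac mice 1 to 3. Lpcat3 KOMac mice 1 and 3 thus lay within the WT range, and mouse 2 lay far below it. The means were -2.21 ± 0.53 in WT and -2.62 ± 1.11 in Lpcat3 KOMac cells (SD, n = 3 each), a difference of -0.42 that was smaller than the spread between mice of either group. It was -0.13 without WT mouse 2, 0.22 without Lpcat3 KOMac mouse 2 and 0.17 without both libraries of highest hepatocyte level. Taken against *Clec4f* alone, *Timd4* CPM amounted to 4.66%, 7.7% and 3.92% of *Clec4f* CPM in WT mice 1 to 3 and to 6.49%, 1.91% and 7.75% in Lpcat3 KOMac mice 1 to 3.

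**Figure D3:**
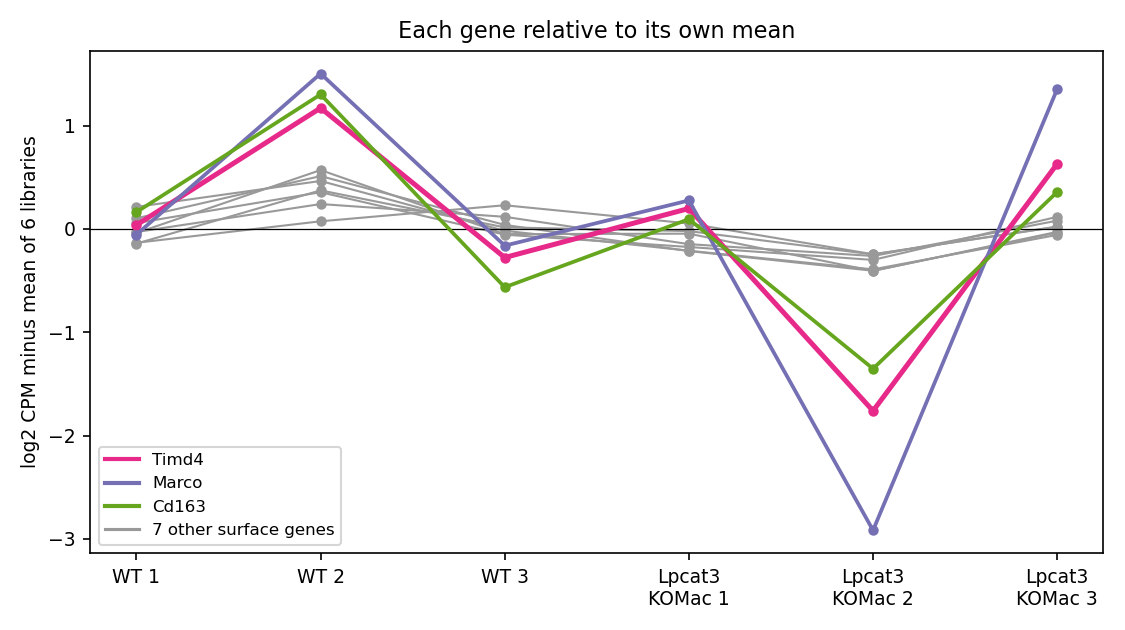
Log2 CPM of each gene minus its own mean over the 6 libraries, with *Timd4* in pink, the scavenger receptor genes *Marco* and *Cd163* in purple and green, and the 7 other members in grey; lines join the values of 1 gene and imply no order of the mice. *Timd4*, *Marco* and *Cd163* all peak in WT mouse 2 and are lowest in Lpcat3 KOMac mouse 2, and the grey lines spread less than *Timd4*. All grey lines are also lowest in Lpcat3 KOMac mouse 2, and all but that of *Clec1b* peak in WT mouse 2.

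Of the other genes known in Kupffer cells, 23 were examined. None passed the test, 0 had an unadjusted p-value under 0.05 (2.64% of all genes did), 18 had an estimate below zero and 5 above, and the median log2 fold change was -0.18. *Marco*, a scavenger receptor for bacteria and particles, was at 1076, 3168 and 999 CPM in WT 1 to 3, against 1353, 148 and 2855 CPM in Lpcat3 KOMac mice 1 to 3. *Cd163*, the receptor for haptoglobin-bound hemoglobin, which was singled out after its values were seen, was at 1132, 2493 and 684 CPM in WT 1 to 3, against 1080, 396 and 1296 CPM in Lpcat3 KOMac mice 1 to 3. Both had their maximum and minimum in the same libraries as *Timd4*. This was not particular to them. The same libraries held both extremes of most members and of *C6*, *Fcna*, *Cdh5*, *Slc40a1*, *Nr1h3*, *Pcolce2*, *Hpgd* and *Cfp* of this list. They did not hold both extremes of the rest of the list, such as *Hmox1*, *Spic* and *Axl*. Over all genes tested, WT mouse 2 was highest for 21% and Lpcat3 KOMac mouse 2 lowest for 17.1%. The iron exporter *Slc40a1* was at 5625 ± 1197 CPM in WT cells and 5154 ± 728 CPM in Lpcat3 KOMac cells, and the ficolin *Fcna* at 2025 ± 547 and 1459 ± 428 CPM (SD, n = 3 each). *Axl*, a receptor for phosphatidylserine-bound GAS6, was nearly level, at 1763 ± 208 CPM in WT cells and 1733 ± 107 CPM in Lpcat3 KOMac cells (SD, n = 3 each), with a log2 fold change of -0.02 (SE 0.12) that turned positive under other scalings.

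Genes with the profile most like that of a member were sought over 10520 others with a mean of at least 5 CPM, by Pearson's r of log2 CPM over the 6 libraries, which share hepatocyte RNA and depth as sources of variation. For *Timd4* these were *Raver2* (r = 0.996), *Xlr* (0.995), *Btbd11* (0.991), *Zdhhc18* (0.99) and *Snx4* (0.989). The range of *Raver2*, at 9.12-fold, was wider than that of *Timd4* and that of *Xlr*, at 6.53-fold, narrower, and *Xlr* ran from 6.17 CPM in Lpcat3 KOMac mouse 2 to 40.3 CPM in WT mouse 2. *Snx4* and *Zdhhc18* had the same profile over a range of only 1.28-fold and 1.23-fold. For *Clec4f* they were *Nmt1* (0.996), *Mier1* (0.995), *Tyrobp* (0.988), *Uxs1* (0.988) and *Tmem176b* (0.987). *Tyrobp*, which encodes the signalling adaptor DAP12 of myeloid cells and is also 1 of the 10 pan-macrophage genes, was at 735, 853 and 752 CPM in WT 1 to 3, against 661, 610 and 705 CPM in Lpcat3 KOMac mice 1 to 3. Ranking 10520 genes over 6 libraries can give correlations this high by selection alone. They do not show a link with *Timd4* or *Clec4f*.

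Of 22 paralogs of the members, 19 had enough counts, 0 passed the test, 8 estimates were below zero and 11 above, with a median log2 fold change of 0.12. At an unadjusted p-value under 0.05, 1 was lower and 1 higher in Lpcat3 KOMac cells, against 1.57% and 1.07% of all genes. *Clec2d*, which encodes a ligand of an inhibitory natural killer cell receptor, was at 81.4 ± 1.53 CPM in WT cells and 67.9 ± 1.99 CPM in Lpcat3 KOMac cells (SD, n = 3 each), giving a log2 fold change of -0.26 (SE 0.07, unadjusted p = 0.00846 and adjusted p = 1 in edgeR). The estimate for *Clec2d* depended on scaling, at -0.17 with total counts alone and -0.06 with scaling to the pan-macrophage genes. *Clec7a*, the beta-glucan receptor dectin-1, was at 516 ± 85.1 CPM in WT cells and 665 ± 62 CPM in Lpcat3 KOMac cells (SD, n = 3 each), giving a log2 fold change of 0.37 (SE 0.15, unadjusted p = 0.0485 and adjusted p = 1 in edgeR). *Clec12a*, *Clec4n* and *Clec4a3* had log2 fold changes of -0.08, 0.13 and -0.16, with standard errors of 0.14, 0.09 and 0.13.

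Of 9 genes for ligands and partners of the members, 8 had enough counts and 0 passed the test, with a median log2 fold change of -0.07. *Pdpn*, the ligand of CLEC-2, was too low to test, at 0.327 CPM or less in every library. *C3*, the source of the fragments bound by VSIG4, is made mainly by hepatocytes, and it was at 1877, 361 and 249 CPM in WT 1 to 3, against 594, 1131 and 543 CPM in Lpcat3 KOMac mice 1 to 3, highest in the libraries with the most hepatocyte RNA. *Syk*, the kinase downstream of CLEC-2, *Mertk*, an uptake receptor that acts beside TIM-4, and the integrin chain *Itgb1* had log2 fold changes of -0.04, -0.04 and -0.09, with standard errors of 0.12, 0.11 and 0.09. *Podxl*, a sialomucin found on endothelium, was at 9.55 ± 2.12 CPM in WT cells and 16.5 ± 4.66 CPM in Lpcat3 KOMac cells (SD, n = 3 each), with a log2 fold change of 0.79 (SE 0.27, unadjusted p = 0.0294 and adjusted p = 1 in edgeR).

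Markers of other cells were measured beside the members. Of 12 genes of recruited monocytes and lipid-associated macrophages, 0 passed the test, 10 had an estimate above zero, 3 were higher in every Lpcat3 KOMac mouse than in every WT mouse (2.29% of all genes were), and the median log2 fold change was 0.52. Their summed level was 650, 333 and 1217 CPM in WT mice 1 to 3 and 1360, 1226 and 1273 CPM in Lpcat3 KOMac mice 1 to 3. WT mouse 2, highest in *Timd4*, was thus lowest in these genes, while Lpcat3 KOMac mouse 2, lowest in *Timd4*, was level with the other Lpcat3 KOMac mice. The 3 genes were *Gpnmb*, *Spp1* and *Mmp12*, and *Gpnmb* was at 89, 22.2 and 164 CPM in WT 1 to 3, against 237, 182 and 199 CPM in Lpcat3 KOMac mice 1 to 3. Of 8 sinusoidal endothelial genes, 0 passed the test and 7 had an estimate above zero, with a median log2 fold change of 0.70. At an unadjusted p-value under 0.05, 3 of them were higher, against 1.07% of all genes: *Kdr* (0.79), *Ptprb* (0.77) and *Gpr182* (0.73). Their summed level was 928 to 1017 CPM in WT and 1019 to 1280 CPM in Lpcat3 KOMac cells, of which *Stab2*, with a log2 fold change of 0.02, made up the most. The 6 stellate cell genes summed to 89.6 to 199 CPM in WT and 145 to 263 CPM in Lpcat3 KOMac cells. Neutrophil markers were near zero, at 2.08 to 3.13 CPM in WT and 4.24 to 5.61 CPM in Lpcat3 KOMac cells for 5 genes together, and *Ly6g* had 0 counts in 3 libraries. The 5 T and NK cell genes summed to 1.83 CPM or less and the 4 B cell genes to 26.9 CPM or less in every library. Cholangiocyte (3 genes, 0.694 CPM or less), dendritic cell (6 genes, 54.8 CPM or less), eosinophil (3 genes, 27.3 CPM or less), platelet (4 genes, 28.1 CPM or less) and erythroid genes (3 genes, 63.6 CPM or less) were also low beside the members, whose sum was at least 19932 CPM. At an unadjusted p-value under 0.05, 1 gene each of the recruited and lipid-associated, neutrophil, T and NK cell and eosinophil lists was higher. These were *Spp1*, *S100a8*, *Cd3d* and *Ccr3*, higher in Lpcat3 KOMac cells, against 1.07% of all genes. *Cd3d* had only 5 to 13 counts in a library. The part of these cells in the differences between the genotypes was not tested.

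**Figure D4:**
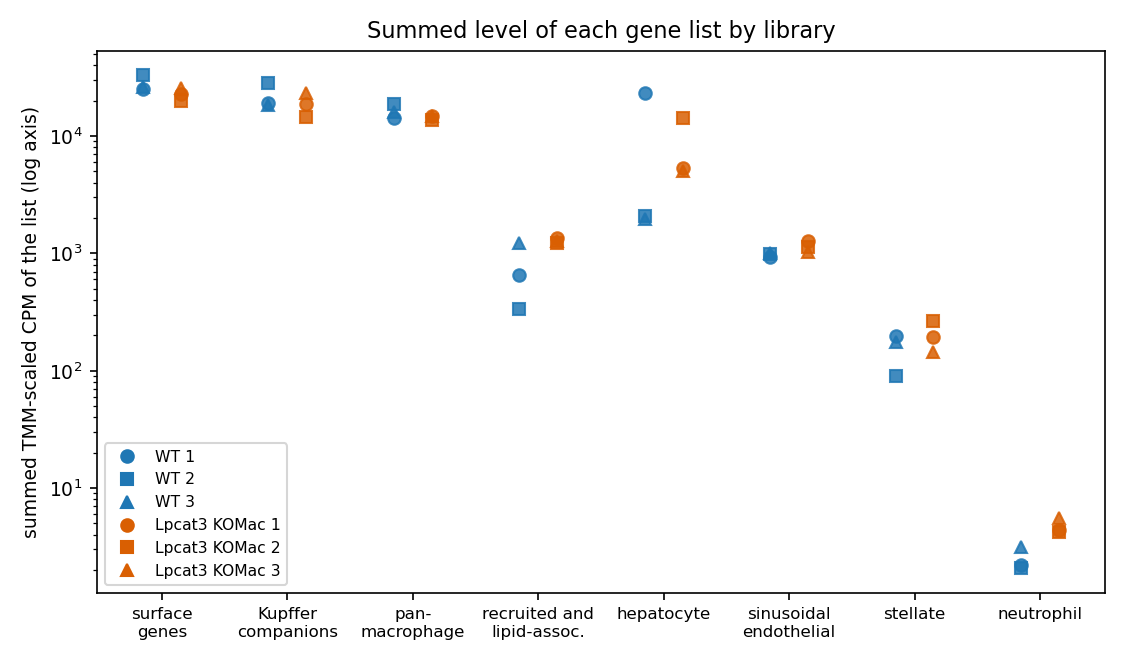
Summed TMM-scaled CPM on a log axis of 8 gene lists in each library, with blue symbols for WT, orange symbols for Lpcat3 KOMac and 1 symbol shape per replicate number. The 8 surface genes sum to 25423 to 32912 CPM in WT and 19932 to 25901 CPM in Lpcat3 KOMac cells, the recruited and lipid-associated genes are lowest in WT mouse 2, and hepatocyte genes spread over more than a factor of 10.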

How the data were processed

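RNA of F4/80-positive liver cells from 3 WT and 3 Lpcat3 KOMac mice was sequenced after poly-A selection. The authors deposited raw read counts per Ensembl gene, not normalized; the submitters' processing notes name Trimmomatic 0.36, STAR 2.5.2b, featureCounts of Subread 1.5.2 and GRCm38, while strand setting and handling of multi-mapping reads are not given in the sources used here. Symbols came from GENCODE M21 and were found for 48970 of 49315 genes. The test was that of edgeR 4.0.16 under R 4.3.3 (TMM, filterByExpr with a minimum count of 10, robust quasi-likelihood test, genotype only), with Benjamini-Hochberg adjustment over 16134 genes and a threshold of 0.05. Log2 CPM used a prior count of 2. Intervals are the estimate ± the t quantile times the standard error, which is the absolute log2 fold change over the square root of F. P-values measure the spread between these mice.

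Members and gene lists were chosen with earlier results of these data known. Named were all members, from the lists of other Kupffer genes, paralogs, and ligands and partners those with an unadjusted p-value under 0.05 and the 4 others of highest mean CPM, and the 5 genes most correlated with *Timd4* and with *Clec4f*; *Cd163* and other named genes of the marker lists were added after their values were seen. Promoter windows came from RefSeq (GRCm38.p6). Alternatives were DESeq2 1.42.0, limma-voom (limma 3.58.1), other scalings and filters, no robust dispersion, a hepatocyte covariate, a gene length offset, the replicate number as a block and leaving out mice. The test was tested on simulated data, with the same dispersion for every gene and, apart from the genes changed, the same composition in every library. The simulation therefore does not show how the test performs on libraries that differ in hepatocyte RNA. Libraries of different mice were no copies, every pair giving a chi-square over its degrees of freedom of 41.3 or more.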

Additional observations from a re-analysis of the deposited data

How the results depend on the processing

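The 8 members and the 23 other Kupffer genes stayed at 0 called genes in edgeR under all scalings, filters and covariates, in DESeq2 and limma-voom, and with each mouse left out. In every edgeR setting and in limma-voom, 0 of all genes tested were called, so the 0 there says nothing particular about these genes. Over all genes, DESeq2 called 15 where edgeR called 0, with 481 and 426 genes at an unadjusted p-value under 0.05. With each mouse left out edgeR called 0, but the number at an unadjusted p-value under 0.05 ran from 179 without Lpcat3 KOMac mouse 1 to 2028 without WT mouse 1, and it was 1472 with the hepatocyte covariate and 817 with pan-macrophage scaling. With each mouse left out the median log2 fold change of the members ranged from -0.39 to -0.11, and the difference of *Timd4* to the other members from -0.78 to 0.22. Estimates reversed in direction under pan-macrophage scaling for *Clec1b* (0.09), *Adgre1* (0.04), *Axl* (0.19), *C3* (0.01), *Clec12a* (0.13), *Clec4a3* (0.06), *Itgb1* (0.12), *Mertk* (0.17), *Slc40a1* (0.09) and *Syk* (0.17). With total counts alone they reversed for *Axl* (0.07), *C3* (0.02), *Clec12a* (0.00), *Mertk* (0.05) and *Syk* (0.04). With the hepatocyte covariate *Axl* and *Syk* were each at 0.02, and in limma-voom *C3* was at 0.38. Without WT mouse 1 and Lpcat3 KOMac mouse 2, a setting chosen after seeing the data, *C3* was at 0.90 and *Marco* at 0.01. With each mouse left out the ranges that crossed zero were -0.91 to 0.11 for *Timd4*, -0.10 to 0.07 for *Axl*, -0.57 to 1.31 for *C3*, -0.19 to 0.02 for *Clec12a*, -1.21 to 0.48 for *Marco*, -0.10 to 0.06 for *Mertk*, -0.23 to 0.06 for *Slc40a1* and -0.14 to 0.03 for *Syk*. Their causes were not tested.

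Same-numbered mice did not all deviate together. Correlations across genes of their deviations from the group means were -0.303, -0.596 and 0.36 for mice 1 to 3. Within each group the deviations of the mice depend on each other, so this check cannot tell whether same-numbered mice shared a batch. With the replicate block edgeR called 0 genes, 138 had an unadjusted p-value under 0.05, 0 of them members (2 without the block), the median of the members was -0.28 and the difference of *Timd4* to the other members -0.42, while *C3* reversed to 0.45. Counts of the members were at least 6372 in every library.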
